A study of Mus musculus with 16 samples.

Results

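In mouse macrophages, 1192 regions held a listed peak of open chromatin without the LXR agonist T0901317 (T0) and none with it. This was so both before and after lipopolysaccharide (LPS). They are called T0-absent regions here. Absent means that no peak was listed, and open chromatin with a signal below the threshold for a peak would also count as absent. Peaks of the 4 lists that shared at least 1 bp were merged into 37648 regions, and a region was chosen by holding a peak of the vehicle list (Veh) and of the LPS list and none of the T0 or the T0-LPS list. Of the 30629 regions with both a Veh and an LPS peak, this left 1192, or 3.89% (Wilson 95% interval 3.68 to 4.11%). The values that chose them were presence and absence in the 4 lists, so their absence with T0 is a description and not a result.

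ATAC-seq, which reads open DNA from the sites where the transposase Tn5 can insert adaptors, was run on 16 libraries of 50000 bone marrow-derived macrophages from female C57BL/6J mice of 8 to 10 weeks. After a day without serum, on day 8 of culture, cells received DMSO (Veh) or T0 at 500 nM for 3 h and were harvested, or received LPS at 10 ng/mL for 2 h more in the same medium (LPS and T0-LPS). The groups with LPS were therefore also cultured 2 h longer. The 4 libraries of a group were pooled before peaks were called and filtered to macrophage enhancers, so each group is 1 list with no replicate check, and the depth of each library is unknown.

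The T0 list was the shortest, with 29839 peaks, followed by T0-LPS with 31085, LPS with 33181 and Veh with 35551. A peak within 1 kb of a transcription start site (TSS) was found for 7 of 8 macrophage markers in Veh and T0 and for 8 of 8 in LPS and T0-LPS. Csf1r, the receptor of the growth factor CSF1, made the difference, and 0 of 9 markers of other lineages had such a peak in any list.

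The liver X receptor (LXR) belongs to the nuclear receptors, binds oxysterols and pairs with RXR on direct repeats of AGGTCA spaced by 4 bases (DR4). In macrophages it is known for inducing cholesterol efflux and lipid synthesis genes and for lowering inflammatory genes. Macrophage enhancers are opened mainly by PU.1 together with AP-1, C/EBP and RUNX factors, and LPS, a ligand of TLR4, adds NF-kB and IRF factors at some of them.

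The DNA under these regions is shown for members that carried a consensus match, since the sequence was not used to choose them. Windows of 120 bases are from the RefSeq GRCm38 (mm10) sequence, plus strand, with the match in capitals. Each line is named by the nearest protein-coding gene and the motif. The first lines show direct repeats with up to 2 mismatches to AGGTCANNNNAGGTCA, the response element of LXR.
4933412E24Rik DR4, chr15:59951176-59951295: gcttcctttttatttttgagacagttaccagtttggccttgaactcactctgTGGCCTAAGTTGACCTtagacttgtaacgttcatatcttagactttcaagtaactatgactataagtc
Cfap54 DR4, chr10:93069486-93069605: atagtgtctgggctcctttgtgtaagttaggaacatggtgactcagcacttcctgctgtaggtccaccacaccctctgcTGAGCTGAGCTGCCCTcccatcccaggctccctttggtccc
Psd3 DR4, chr8:68206853-68206972: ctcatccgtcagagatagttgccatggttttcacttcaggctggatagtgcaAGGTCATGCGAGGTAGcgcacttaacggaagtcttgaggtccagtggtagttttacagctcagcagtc
Dbp DR4, chr7:45707796-45707915: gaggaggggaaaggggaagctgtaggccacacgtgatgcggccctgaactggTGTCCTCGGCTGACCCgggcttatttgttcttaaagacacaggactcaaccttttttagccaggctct

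The match near 4933412E24Rik had 1 mismatch, the fewest among the T0-absent regions, and the other matches shown had 2. Dbp encodes a transcription factor of the circadian clock, and the window lies in its intron. The next lines show the AP-1 consensus TGACTCA on either strand in the T0-absent region with the highest rank in both lists among those with consecutive peak numbers, which are explained below, and the PU.1 consensus GAGGAAGT in introns of Wipi2, an autophagy gene, and Arrb1, which encodes beta-arrestin 1.
Adgrl2 AP-1, chr3:149312945-149313064: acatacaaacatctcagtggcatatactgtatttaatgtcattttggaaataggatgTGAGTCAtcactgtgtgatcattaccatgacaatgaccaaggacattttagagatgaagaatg
Wipi2 PU.1, chr5:142630439-142630558: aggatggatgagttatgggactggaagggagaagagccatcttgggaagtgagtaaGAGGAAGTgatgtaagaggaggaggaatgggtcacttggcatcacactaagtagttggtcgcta
Arrb1 PU.1, chr7:99549802-99549921: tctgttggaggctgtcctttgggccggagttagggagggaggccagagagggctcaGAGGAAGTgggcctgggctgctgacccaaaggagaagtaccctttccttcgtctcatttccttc

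The half-site AGGTCA alone (TGACCT on the plus strand here) is shown near the receptor gene Notch2. NF-kB consensus matches are shown near Nr1d1, which encodes the nuclear receptor REV-ERB alpha, and near 1700001O22Rik. The CTCF consensus, the motif of an insulator protein, was added after its values were seen, because its share was higher in the T0-absent regions than in the other sets.
Notch2 AGGTCA, chr3:97994101-97994220: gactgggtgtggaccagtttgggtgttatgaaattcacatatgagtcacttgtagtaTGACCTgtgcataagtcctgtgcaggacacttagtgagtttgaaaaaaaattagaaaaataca
Nr1d1 NF-kB, chr11:98775846-98775965: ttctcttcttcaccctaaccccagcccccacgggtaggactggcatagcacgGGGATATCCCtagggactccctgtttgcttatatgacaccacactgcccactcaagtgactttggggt
1700001O22Rik NF-kB, chr2:30772957-30773076: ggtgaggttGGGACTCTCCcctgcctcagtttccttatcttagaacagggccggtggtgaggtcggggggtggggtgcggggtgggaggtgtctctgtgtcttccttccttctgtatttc
Pik3r6 CTCF, chr11:68521478-68521597: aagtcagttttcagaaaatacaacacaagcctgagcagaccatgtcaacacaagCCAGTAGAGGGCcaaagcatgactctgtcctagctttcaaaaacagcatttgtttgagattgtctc
Utf1 CTCF, chr7:139949925-139950044: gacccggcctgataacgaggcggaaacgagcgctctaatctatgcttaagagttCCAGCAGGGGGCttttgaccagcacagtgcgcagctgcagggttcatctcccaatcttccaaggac

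The T0-absent regions were weak peaks where they were present. Score percentile is used here for the share of peaks in a list with a score at or below that of the peak. Their Veh scores ran from 40 to 1169 with a median of 135, at a median percentile of 13.0. Their LPS scores ran from 39 to 1097 with a median of 111, at a median percentile of 9.67. Veh peaks of these regions had a median width of 229 bp, and their LPS peaks one of 212 bp. Regions kept in all 4 lists, 26439 in number, had median scores of 489 in Veh and 394 in LPS and median widths of 444 and 408 bp. Of the T0-absent regions, 1158 lay below the median score of both lists.

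The share of T0-absent regions therefore fell steeply with peak strength. In the lowest decile of Veh score, 788 of 3063 regions (25.7%) were T0-absent, in the next 262 (8.55%) and in the third 86 (2.81%). In the tenth decile 2 of 3063 regions were. The lowest 3 deciles contained 95.3% of all T0-absent regions. When each list was shortened to its 29839 best-scored peaks, the length of the T0 list, 341 regions were T0-absent, and 52 of the T0-absent regions scored at least 200 in both Veh and LPS.

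**Figure D1:**
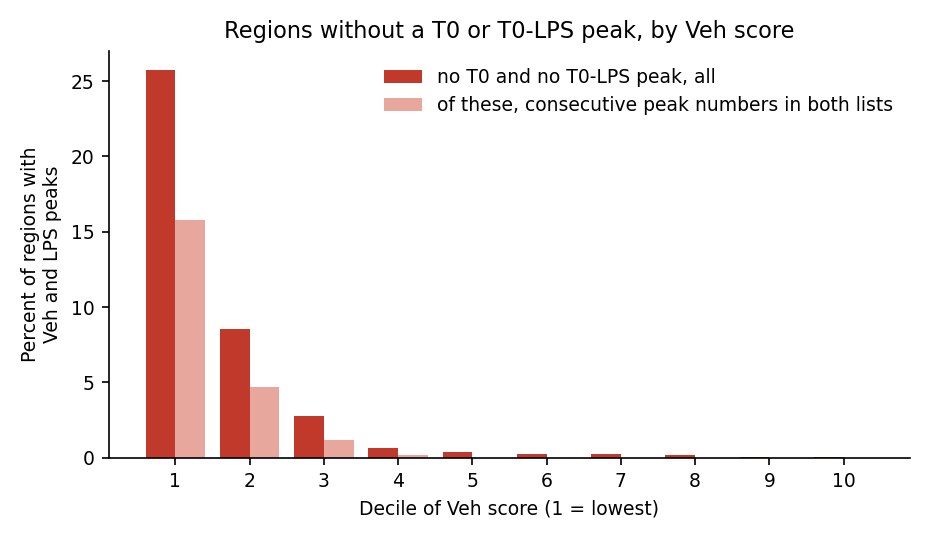
Percent of regions with Veh and LPS peaks that had no T0 and no T0-LPS peak (y axis), by decile of Veh score (x axis, 1 lowest). Dark bars are all T0-absent regions and light bars those with consecutive peak numbers. Both fall from the lowest decile, where they reach 25.7% and 15.8%.

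Set against each list by itself, of the 30629 regions with Veh and LPS peaks, 10.0% had no T0 peak and 7.55% had no T0-LPS peak. A further 1876 regions were missing from the T0 list only and 1122 from the T0-LPS list only. Regions missing from T0 only had a median score of 150 in Veh, 154 in LPS and 127.5 in T0-LPS. Those missing from T0-LPS only had 208 in Veh, 129 in T0 and 125 in LPS. The T0-absent regions had the lowest medians of the 3 sets in Veh and in LPS. Scores are on the scale of their own list.

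Peak names carry a number that rises along each chromosome, and missing numbers were taken to stand for called peaks that the enhancer filter removed. Where the peaks that flank a region in the T0 and the T0-LPS list have consecutive numbers, the numbering leaves no room for a removed peak. This held in both lists for 670 of the 1192 T0-absent regions (56.2%, interval 53.4 to 59.0%). A number was missing in the T0 list at 444, in the T0-LPS list at 452 and in at least 1 of them at 520, and 2 regions lacked a flanking peak. A missing number leaves room for a removed peak anywhere between the flanking peaks, at the region or beside it.

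The strongest T0-absent regions all lay where a number was missing. Of the 18 regions at or above percentile 50 in both lists, 0 had consecutive numbers (interval up to 17.6%). Among the 670 with consecutive numbers, the highest value of the lower of the 2 percentiles was 35.0, near Adgrl2. The 5 highest of all T0-absent regions by this measure lay near Gm14403, Ddc, Plcb4, Map6 and Flt1. The region near Gm14403, 108 bp upstream of the TSS, scored 1169 in Veh and 1097 in LPS, with 2 numbers missing in T0 and 1 in T0-LPS. The region in an intron of Ddc, which encodes the decarboxylase that makes dopamine and serotonin, scored 804 in Veh and 682 in LPS. The region 61013 bp upstream of Flt1, the VEGF receptor 1 gene, scored 632 and 534, with 1 number missing in each list. For these regions, a peak called with T0 and then removed by the filter cannot be told apart from no peak.

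**Figure D2:**
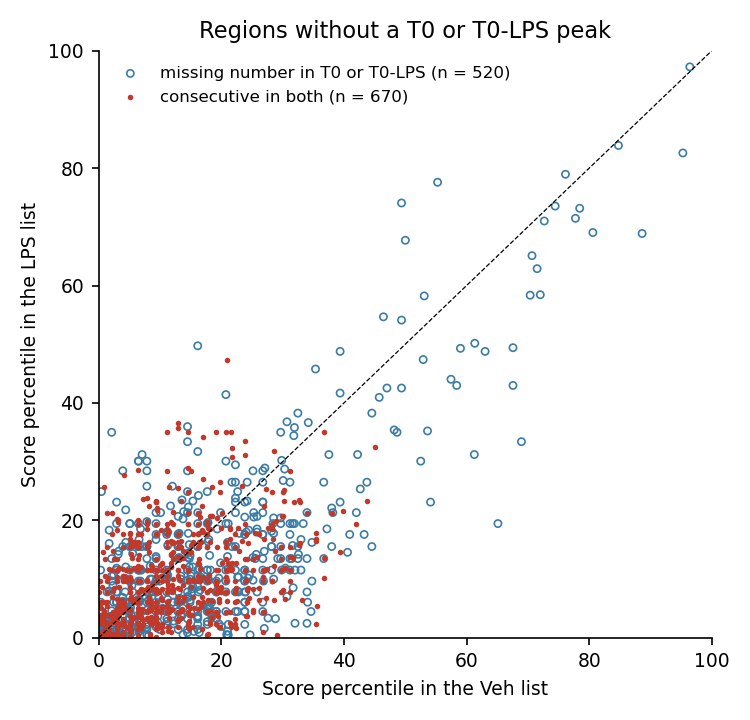
Score percentile in the Veh list (x axis) and in the LPS list (y axis) of T0-absent regions, 1 point per region. Filled points are the 670 regions with consecutive numbers and open points the 520 with a missing number. The filled points stay in the lower left, and the points at or above percentile 50 on both axes are all open.

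By rank in both lists, 12 T0-absent regions with consecutive numbers led. The first, at chr3:149312920-149313150 in an intron of the noncoding gene Gm30382 and 322488 bp upstream of Adgrl2, an adhesion G protein-coupled receptor gene, scored 270 in Veh (percentile 36.7) and 226 in LPS (percentile 35.0). Its nearest T0 peak was 13597 bp away. The region 24707 bp downstream of the TSS of Wdr5, which encodes a subunit of histone H3K4 methyltransferases, scored 333 in Veh (percentile 45.1) and 213 in LPS (percentile 32.4), and here a T0 peak lay 90 bp away and a T0-LPS peak 86 bp away. An intronic region of the cilia gene Cfap54 at chr10:93069376-93069647 scored 220 and 209 and held a DR4 and an AP-1 match in the window shown above. An intronic region of Pkig, which encodes an inhibitor of protein kinase A, scored 234 and 191. Further regions of this group lay near Inka1, Nabp1, Hs3st3b1, Ubl3, Notch2, Wipi2, Arrb1 and Rrbp1, with Veh scores from 190 to 245 and LPS scores from 168 to 218.

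T0-absent regions often lay near other open chromatin that remained, as did regions missing from 1 of the lists with T0 only. The median distance to the nearest T0 peak was 5340 bp and to the nearest T0-LPS peak 4405 bp. A T0 peak lay within 1 kb of 310 of the regions (26.0%) and a T0-LPS peak within 1 kb of 339 (28.4%). No T0 peak lay within 10 kb of 449 (37.7%). A kept region lay within 10 kb of 59.4% of T0-absent regions, 57.2% of regions missing from T0 only and 60.2% of those missing from T0-LPS only. Within 1 kb these shares were 19.0%, 13.7% and 17.5%. The T0-absent regions that came closest to a peak with T0 without touching it lay in Rtf1, 2 bp from a T0-LPS peak, and in Cers2, Tsc1 and Sap30l, with gaps of 25, 49 and 53 bp. Just outside the definition were regions near Pak1, Fam53b, Tasp1 and Mgat5, whose peaks in T0 or T0-LPS overlapped a Veh or LPS peak by 62, 76, 77 and 94 bp.

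T0-absent regions lay less often at promoters than regions that stayed. For these shares the TSS of any annotated transcript counted, coding or not. Within 1 kb of a TSS were 368 of them (30.9%, interval 28.3 to 33.6%), against 43.1% of kept regions and 43.2% of kept regions with the same distribution over Veh score deciles. For the 670 with consecutive numbers the share was 33.3%, for regions missing from T0 only 31.2% and for regions missing from T0-LPS only 23.3%. With lists of equal length it was 63 of 341, or 0.454 times the kept share, and at scores of at least 200 it was 5 of 52. By midpoint, 54.2% lay in introns against 47.6% in kept regions of the same deciles, and 7.30% in untranslated exons against 13.5%. The intergenic shares were 32.6% and 31.6%. Median GC content of the central 200 bp was 50.0% in T0-absent and 53.5% in kept regions, and the median number of CpG dinucleotides 3 and 5.

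**Figure D3:**
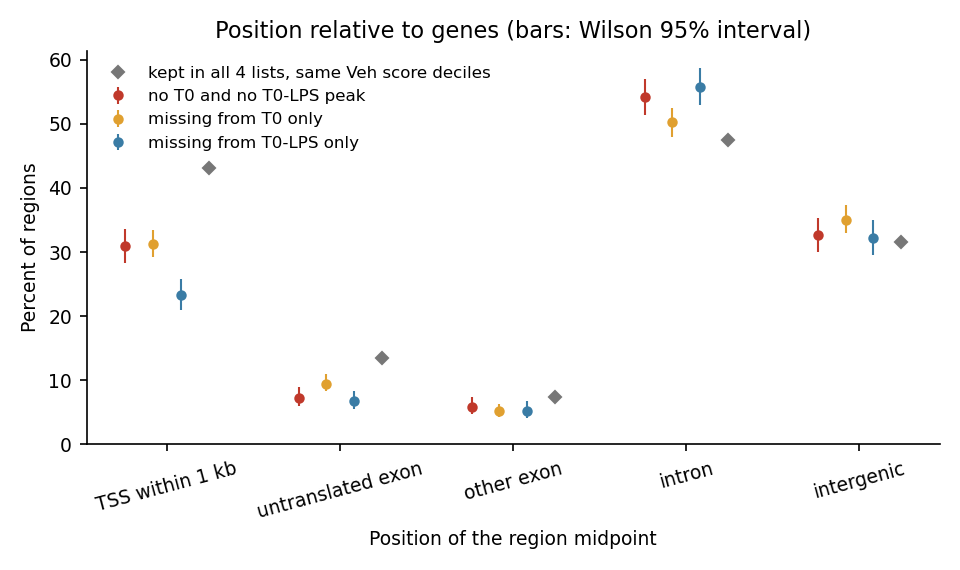
Percent of regions (y axis) within 1 kb of a TSS or with their midpoint in each annotation class (x axis), which overlap with the TSS window. Points with bars are the 3 sets missing from at least 1 list, with Wilson 95% intervals, and diamonds are kept regions of the same Veh score deciles. T0-absent regions are at 30.9% near a TSS and kept regions at 43.2%.

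Among T0-absent regions within 1 kb of a protein-coding TSS, 6 led by rank in both lists with consecutive numbers. The region over the TSS of Inka1 scored 213 in Veh and 177 in LPS and lay 201 bp from a T0 peak. Regions within 100 bp of the TSS of Trmt1, a tRNA methyltransferase gene, and of Vps35l, which encodes a subunit of the endosomal retriever complex, scored 180 and 228 in Veh and 227 and 157 in LPS. The other 3 lay at Wipi2, Kcmf1 and D17H6S53E. Those of Inka1, Trmt1, Vps35l and Kcmf1 held a GC box.

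Consensus motifs were compared in the 200 bp at the midpoint of the strongest Veh peak, on either strand, beside kept regions of the same Veh score deciles. Intervals cover counting error only, and only that of the set they are given for. Kept shares of the same deciles were taken as exact, also in ratios, although the lowest decile held only 912 kept regions. In these windows the intervals of both LXR motifs in T0-absent regions contained the shares of kept regions. AGGTCA was found in 133 of 1192 windows (11.2%, interval 9.49 to 13.1%) against 11.1% of the kept windows. DR4 was found in 19 (1.59%, interval 1.02 to 2.48%) against 1.97%, and it contains AGGTCA where its first or last repeat is exact. In whole Veh peaks AGGTCA was less frequent than in kept regions of the same deciles, with a ratio of the shares of 0.844 (interval 0.731 to 0.971). Whole peaks were not matched in width, and their medians were 229 bp in T0-absent and 444 bp in all kept regions. From 200 bp windows to whole peaks the ratio also fell for DR4, AP-1, NF-kB, PU.1 and CTCF. Over all regions with a Veh peak, 11.8% of the windows held AGGTCA and 1.87% DR4. An exact DR4 was found in 0 T0-absent regions and in 5 kept regions (0.0189%), which is too rare for the 0 to show a difference. For DR4 the order turned at scores of at least 200, with 2 of 52 regions (ratio 2.21, interval 0.61 to 7.4). It also turned in 100 bp windows (ratio 1.09, interval 0.57 to 2.05) and with lists of equal length (ratio 1.065, interval 0.54 to 2.07). Each of these intervals contained 1.

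Apart from 1 region, the T0-absent regions with a DR4 match were weak peaks. The one near Gm14403 scored 1169 in Veh, with missing numbers in both lists. The others scored from 78, near Radil, to 234. Of the 19, 12 (63.2%) had consecutive numbers in both lists and 9 (47.4%) lay within 1 kb of a TSS. The region near 4933412E24Rik with 1 mismatch scored 234 in Veh and 111 in LPS. That of Dbp, an intron window shown above, scored 152 and 126, and that of Psd3 221 and 133. Others lay near Hdac7, a histone deacetylase gene, near Crot, which encodes a peroxisomal carnitine acyltransferase, and near Gpt2, an aminotransferase gene.

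The PU.1 consensus was more frequent in T0-absent regions than in kept regions of the same deciles. It was found in 117 windows (9.82%, interval 8.25 to 11.6%) against 5.90%, and against 7.17% when kept regions were also standardised on GC content. Without a standard, 8.50% of kept regions held it, inside the interval of the T0-absent regions, and 11.5% of regions missing from T0-LPS only did. Of the T0-absent regions with this motif, 14.5% lay within 1 kb of a TSS. AP-1 (TGACTCA) was found in 149 windows (12.5%, interval 10.7 to 14.5%) against 10.9%, or 13.1% with GC content, so that its order turned with the standard. RUNX (TGTGGT) was found in 16.4% against 15.1%, or 17.9% with GC content. C/EBP (TTGCGCAA) was found in 2 windows.

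Among motifs of the LPS response, NF-kB separated the 3 sets missing from at least 1 list, and IRF did so less clearly. NF-kB matches were found in 32 T0-absent regions (2.68%, interval 1.91 to 3.77%) against 4.60% of kept regions of the same deciles, or 4.47% with GC content. Without a standard, 3.58% of kept regions held one, inside the interval of the T0-absent regions. In regions missing from T0 only, which by definition held a T0-LPS peak, the share was 6.78% (interval 5.73 to 8.01%), and in regions missing from T0-LPS only 1.07% (interval 0.613 to 1.86%). For the 670 T0-absent regions with consecutive numbers it was 3.58% (interval 2.42 to 5.28%), or 0.77 times the kept share (interval 0.52 to 1.13). With lists of equal length 6 of 341 held a match, 0.374 times the kept share (interval 0.172 to 0.805). The IRF consensus, GAAA repeated after 2 bases, had the same order among these 3 sets. Its share was 4.87% in T0-absent regions (interval 3.78 to 6.24%) and 7.26% in regions missing from T0 only (interval 6.17 to 8.52%). In regions missing from T0-LPS only it was 2.85% (interval 2.03 to 4.00%). Both of the other intervals overlapped that of the T0-absent regions. Kept regions of the same deciles were below the T0-absent regions for IRF, at 3.97%, and above them with GC content, at 5.03%. Both values lay inside the interval of the T0-absent regions.

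CTCF matches were found in 24 T0-absent regions (2.01%, interval 1.36 to 2.98%) against 0.998% of kept regions of the same deciles and 0.944% with GC content. In regions missing from T0 only the share was 1.44% (interval 0.992 to 2.09%), and in those missing from T0-LPS only 1.16% (interval 0.679 to 1.97%). Both intervals overlapped that of the T0-absent regions. With lists of equal length CTCF was found in 2 of 341 T0-absent regions, and the order against kept regions turned. The GC box GGGCGG was found in 16.8% against 31.7%, or 21.6% with GC content, and the E-box CACGTG in 3.94% against 6.18%. The GC box moved with the promoter share, and 67.0% of the T0-absent regions that held it lay within 1 kb of a TSS.

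**Figure D4:**
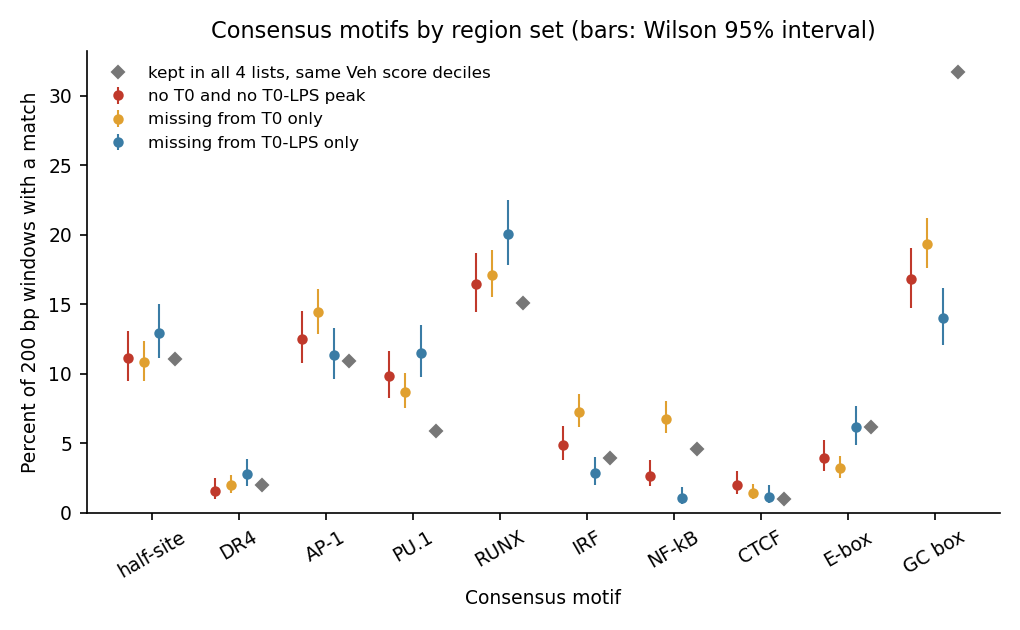
Percent of 200 bp windows with a consensus match (y axis) for 10 motifs (x axis). Points with bars are the 3 sets missing from at least 1 list, with Wilson 95% intervals, and diamonds are kept regions of the same Veh score deciles. PU.1 is at 9.82% in T0-absent regions and 5.90% in kept regions, and NF-kB lies between the other two sets at 2.68%.

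The rank of T0-absent regions in LPS against Veh depended on the regions ranked. Among all peaks of each list, the percentile in LPS minus that in Veh had a median of -2.70 (quartiles -9.69 and 2.58), and 452 of the 1192 (37.9%, interval 35.2 to 40.7%) ranked higher in LPS. Of all kept regions 39.5% ranked higher in LPS, inside that interval, of kept regions in the lowest 3 deciles of Veh score 50.1%, and of kept regions standardised to the deciles of the T0-absent regions 61.7%. When percentiles were taken only among the 30629 regions with both peaks, 49.5% of the T0-absent regions ranked higher in LPS. The share of kept regions in that ranking was not computed. The rule required no T0-LPS peak, whereas kept regions required one and were matched on Veh score only. These shares therefore depend on how the sets were chosen. Regions missing from T0 only, which also required a T0-LPS peak, ranked higher in LPS in 59.0%. Regions missing from T0-LPS only did so in 16.8%. Of the T0-absent regions, 63.1% were narrower in LPS than in Veh, against 69.1% of all kept regions and 51.8% of kept regions of the same deciles.

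**Figure D5:**
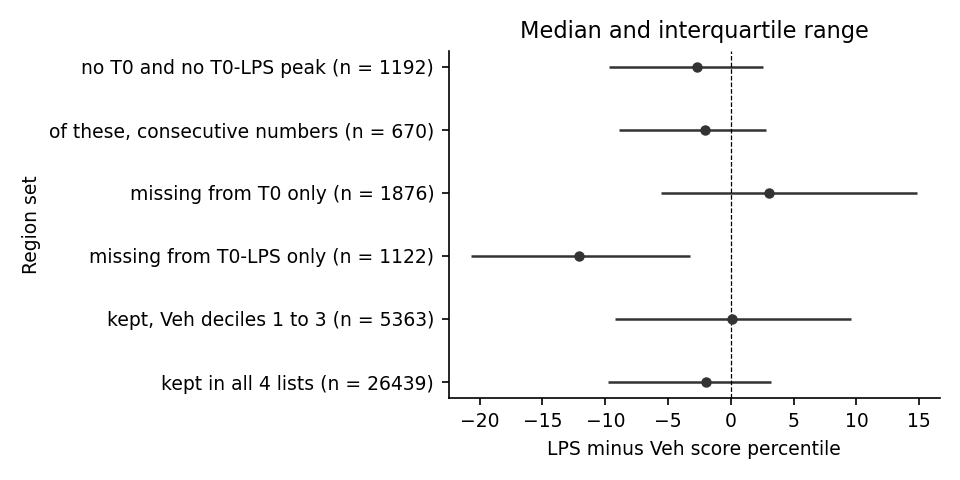
LPS minus Veh score percentile (x axis) by region set (y axis). Points are medians and bars run from the first to the third quartile. The median is -2.70 for T0-absent regions, 3.06 for regions missing from T0 only and -12.1 for regions missing from T0-LPS only.

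Single T0-absent regions moved in both directions with LPS. Among those with consecutive numbers the largest rises were near Nqo2, a quinone reductase gene, Kpna4, an importin gene, Cog3 and Tox2. The region near Nqo2 scored 175 in Veh (percentile 20.9) and 300 in LPS (percentile 47.4). That in an intron of Cog3, which encodes a subunit of a Golgi tethering complex, scored 127 and 226. The largest falls were in introns of Megf6, Retreg1 and Pla2g4a and 112432 bp upstream of Fndc3a. The region of Megf6 scored 261 in Veh (percentile 35.4) and 76 in LPS (percentile 2.28). That of Pla2g4a, which encodes the phospholipase that releases arachidonic acid, scored 248 and 99.

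Open regions beside T0-absent regions were compared with open regions elsewhere. Kept regions within 10 kb of a T0-absent region, 1064 in number, had a median T0 minus Veh percentile of -5.46, and all 26439 kept regions had -5.28. Their median width change with T0 was -11.1% against -11.2%. With LPS present, the median T0-LPS minus LPS percentile was -0.885 against -1.56. The share of regions that were T0-absent was 3.70% within 5 kb of another T0-absent region, 3.19% at 5 to 10 kb, 4.96% (interval 4.22 to 5.82%) at 10 to 50 kb, 4.39% at 50 to 100 kb and 3.73% beyond 100 kb. On the autosomes and chromosome X it ran from 3.13% on chromosome 9 to 5.24% on chromosome 11 (108 of 2061, interval 4.36 to 6.29%), and 0 of 7 regions on chromosome Y were T0-absent.

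Genes nearest to T0-absent regions numbered 1098, of which 1010 had 1 region. Igf1, which encodes an insulin-like growth factor made by macrophages, had 4 of its 14 nearest Veh and LPS regions T0-absent. The region 71 bp upstream of its TSS, at chr10:87858098-87858332, scored 228 in Veh and 106 in LPS, and that 300 bp downstream scored 63 and 87. The other 2, 18587 and 80975 bp upstream, scored 107 and 98 in Veh and 105 and 63 in LPS. Of these 4 regions, 3 had consecutive numbers.

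Rapgef2, Prdm1, Foxp1 and Mbnl1 had 3 T0-absent regions each, of 16, 16, 25 and 17. Prdm1 encodes the repressor BLIMP-1, and its regions scored 158, 98 and 105 in Veh and 151, 142 and 97 in LPS, all with consecutive numbers. Foxp1 encodes a forkhead factor of monocyte differentiation, and its region 29 bp upstream of the TSS scored 128 in Veh and 135 in LPS. Flt1, Gpr142 and Pkig had 2 regions each. After the Igf1 window, 8 windows of 100 kb held 3 T0-absent regions each, of which 3 lay on chromosome 11, 2 on chromosome 3 and 1 each on chromosomes 5, 13 and 14. Those on chromosome 11 included 1 at Cuedc1 and Mrps23 and 1 at Rab5c, Hcrt and Ghdc. From the first to the last T0-absent region, 3 of 4 and 3 of 5 Veh and LPS regions were T0-absent. These stretches begin and end with T0-absent regions, and the rest of the 100 kb was not counted.

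Within 100 kb of a TSS, 3721 of 21924 protein-coding genes (17.0%) had a T0-absent region. For 217 genes of 10 lists of LXR, sterol, inflammatory and macrophage genes, 63 did (29.0%). These genes also lay among more open regions, and of the 1802 Veh and LPS regions near them 65 were T0-absent (3.61%, interval 2.84 to 4.57%), against 3.86% of the 28104 regions near any protein-coding gene.

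No inflammatory cytokine or chemokine gene of the list was the nearest gene of a T0-absent region, but 6 of 23 had one within 100 kb. Of the 167 open regions near them, 7 (4.19%) were T0-absent. A region 13567 bp downstream of the Tnf TSS, nearest to Lst1, scored 97 in Veh and 115 in LPS. A region 3820 bp upstream of the chemokine gene Ccl7 and 6321 bp downstream of the Ccl2 TSS scored 118 and 104, with a missing number. A region 57843 bp from the Nos2 TSS, in an intron of Lgals9, scored 119 and 107.

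Of 32 genes of TLR4 and NF-kB signalling, 7 had a T0-absent region within 100 kb, and 9 of 307 open regions near them (2.93%) were T0-absent. An intronic region of Rel, the gene of the NF-kB subunit c-Rel, lay 1154 bp downstream of the TSS and held a PU.1 match. It scored 152 in Veh and 143 in LPS, with consecutive numbers. An intronic region of Irak2, a kinase gene of the TLR pathway, scored 116 and 44. One in Ly96, which encodes the TLR4 partner MD-2, scored 105 and 84, with 4 numbers missing in T0 and 5 in T0-LPS.

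Of 24 genes of leukocyte adhesion and migration, 10 had a T0-absent region within 100 kb, and 11 of 238 regions (4.62%) were T0-absent. Regions nearest to the formyl peptide receptor gene Fpr2, to Plaur, which encodes the urokinase receptor, and to the integrin gene Itgb1 scored 115, 121 and 119 in Veh. In LPS the same regions scored 165, 87 and 83, so that the one near Fpr2 was higher and the other two lower. The one near Plaur had missing numbers in both lists.

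Of 23 LXR target genes, 7 had a T0-absent region within 100 kb, with 7 of 156 regions (4.49%). The region 631 bp upstream of Apoe, the apolipoprotein E gene, scored 142 in Veh and 112 in LPS and was 76% repeat sequence, with a T0 peak 420 bp away. A region 966 bp into Lpl, the lipoprotein lipase gene, scored 98 and 47, and one 9231 bp upstream of the fatty acid desaturase gene Fads1 scored 96 and 118. These 3 regions had consecutive numbers, and none held a DR4 match.

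Of 19 genes of sterol synthesis and uptake, 7 had a T0-absent region, with 8 of 112 regions (7.14%, interval 3.66 to 13.5%). That share was the highest among the lists, and its interval contained the 3.86% of all genes. The region nearest to Insig1, which encodes a sterol sensor of the endoplasmic reticulum, scored 233 in Veh and 236 in LPS, with 1 number missing in each list.

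Among 20 macrophage lineage factors and markers, 6 had a T0-absent region within 100 kb, with 6 of 209 regions (2.87%). Adgre1, which encodes the macrophage marker F4/80, had one 10757 bp upstream that scored 148 in Veh and 139 in LPS. An intronic region of Runx1 scored 242 and 118, with 1 number missing in each list. Further T0-absent regions had Zeb2, Maf, Klf4 or Bhlhe40 as nearest gene, up to 1134368 bp away for Zeb2.

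The remaining lists gave 4 of 21 genes for phagocytosis, 5 of 16 for AP-1 and ATF factors, 7 of 23 for the interferon response and 4 of 18 for T cell costimulation. Of the open regions near them, 3 of 172 (1.74%, interval 0.595 to 5.00%), 6 of 195 (3.08%), 7 of 179 (3.91%) and 5 of 148 (3.38%) were T0-absent, and the share for phagocytosis was the lowest among the lists. Their nearest regions lay at Fcgr2b, the inhibitory Fc receptor gene, at Batf3 and Bach2, at Stat3 and Ifit2, and at Lgals9, which encodes galectin-9. The region of Stat3, in an intron, scored 150 in Veh and 158 in LPS, and that of Ifit2 132 and 121. For comparison, 5 of 20 housekeeping genes and 3 of 16 genes of other lineages had a T0-absent region, with 9 of 205 (4.39%) and 3 of 80 (3.75%) regions. A region 202 bp into Ywhaz, a 14-3-3 gene counted as housekeeping, scored 168 in Veh and 87 in LPS.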

How the data were processed

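ATAC-seq libraries of 4 groups (Veh, T0, LPS and T0-LPS, 4 libraries each) were analysed as deposited peak lists. The authors trimmed adaptors with cutadapt, aligned with Bowtie2, removed duplicates with SAMtools, pooled the libraries of a group and ran MACS2 on the pool (q cutoff 0.001, fixed shift and extension). They then kept peaks at macrophage enhancers marked by H3K27ac or H3K4me2. Each deposited line held a position, a numbered name and a score from the authors' peak caller, which grows with pooled depth and was used only to rank peaks within a list. The submitters' processing notes name mm10. Whether the libraries came from separate mice is not given in the sources used here, and no p-value was computed.

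Peaks were merged with pandas 2.3.3, TSSs and exons came from GENCODE M21, and sequence was read with pysam 0.24.0. Shares of regions near a TSS used all annotated transcripts, and nearest genes and distances to them used protein-coding transcripts. All 252 genes of 12 fixed lists were found by symbol. Motifs were searched as consensus letters in 200 bp windows, and NF-kB and CTCF by degenerate consensus. Shares in kept regions were standardised by weighting the 10 Veh score deciles (and 5 GC classes where stated) as in the T0-absent regions. Intervals of ratios leave out the counting error of these kept shares. Merging and the DR4 search were tested on simulated peaks and sequences, and the search for the other motifs was not.

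Members and gene lists were chosen with earlier results of these data known. Regions were named by fixed rules: highest lower-of-two percentile (12 with consecutive numbers, 5 of all), nearest genes of the lists (up to 4 each), the 8 genes and 3 windows with the most members, the 6 leading promoters, the 4 largest rises and falls with LPS, those nearest the threshold, and motif examples. Some regions that these rules name are not reported here. Regions named beside list genes that were not their nearest gene, and DR4 regions not printed as sequence, were chosen after their values were seen. Alternatives changed overlap, score floors, list length, windows and standards.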

Additional observations from a re-analysis of the deposited data

How the results depend on the processing

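No paired analysis was possible because the 4 libraries of a group were pooled before peaks were called, and for the same reason no library could be left out. Of 54 alternatives, 37 left the value within its limit and 17 moved it. The limit was the interval, for the count 1.5 times, and for windows around T0-absent regions the spread of single kept regions. The count of 1192 became 52 with Veh and LPS scores of at least 200, 341 when each list was shortened to the 29839 best-scored peaks, and 670 with consecutive peak numbers only. A reciprocal overlap of 50%, a gap of 100 bp, scores of at least 100 in all lists, and autosomes only gave 1456, 1169, 1193 and 1160.

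The promoter share, as a ratio to kept regions of the same deciles, was 0.715, and became 0.606 within 500 bp, 0.228 at scores of at least 200 (5 of 52 regions) and 0.454 with lists of equal length. For motifs the same ratio moved as follows. In whole Veh peaks AGGTCA went from 1.01 to 0.844 (interval 0.731 to 0.971), AP-1 from 1.15 to 0.977 and PU.1 from 1.66 to 1.36. Whole peaks were not matched in width, and those of T0-absent regions were narrower. With GC content in the standard AP-1 went to 0.955 and PU.1 to 1.37. At scores of at least 200, DR4 went from 0.808 to 2.21 (2 of 52 regions, interval 0.61 to 7.4) and AP-1 to 1.81. With lists of equal length AP-1 went to 1.43, NF-kB from 0.583 to 0.374 and CTCF from 2.02 to 0.583 (2 of 341 regions). The share ranked higher in LPS went from 37.9% to 49.5% when only regions with both peaks were ranked. The cause of these moves was not tested. Windows around genes of the lists left the share within its interval. For windows around T0-absent regions the limit was the spread of single kept regions, which a median could hardly exceed. The value there was the median T0 minus Veh percentile of nearby kept regions, minus that of all kept regions. It went from -0.183 within 10 kb to 0.868 within 5 kb and -0.453 within 50 kb. The depth of the libraries is unknown, and its part in these counts was not tested.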
